A study of Mus musculus with 23 samples.

Results

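The RNA of cancer-associated fibroblasts (CAFs) sorted from LL2 tumors was compared with the RNA of whole LL2 tumors. LL2, or LL/2, is a cell line of Lewis lung carcinoma, and the tumors grew in the flank of adult female C57BL/6 mice after subcutaneous injection of 500000 cells. The comparison rested on 5 of the 23 libraries of the series, namely 2 of LL2 CAFs and 3 of LL2 tumors, and its members were every gene measured in both. The CAFs were obtained by digesting tumors overnight with collagenase, depleting CD45+ leukocytes on magnetic beads and sorting FAP+ cells, in 2 separate rounds of sorting, while the tumor RNA came from undigested fragments kept in RNAlater. The same pair of sample types existed for EO771, MC38 and Pan02 tumors in the same mouse strain, with 2 CAF and 3 tumor libraries each, and these served to ask where LL2 differed.

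CAFs are the connective tissue cells of a tumor. They secrete collagens and other matrix proteins, the enzymes that crosslink and cut this matrix, and chemokines and growth factors, and they are commonly divided into matrix-rich contractile myofibroblasts, inflammatory fibroblasts and antigen-presenting fibroblasts. FAP, a serine protease of the cell surface, marks activated fibroblasts. A whole tumor fragment contains fibroblasts too, together with cancer cells, leukocytes, vessels and any adjoining tissue, and in such bulk RNA fewer cells of a type and less RNA per cell cannot be told apart.

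The values of CAFs were RPKM (reads scaled to transcript length and library size), and tumor counts were brought to the same form. The 2 tables were normalized apart, so differences are given as log2(RPKM + 1) of CAFs minus tumors after the median difference of all genes was set to 0. Before this centring the median was 0.45 on the log2 scale, or 1.36-fold, toward CAFs. Of 24940 gene symbols, 12440 reached 1 RPKM in at least 2 of the 5 libraries. A gene was called higher in one fraction if the centred difference was at least 2-fold and no library of one fraction overlapped the other. This is a description without a p-value, since sample type and table cannot be told apart. It called 679 genes higher in CAFs (5.46% of genes) and 813 higher in tumors (6.54%), and these percentages are the background for every list described here. Groups that do not overlap were common by themselves, at 59.4% of genes. A gene that reached 1 RPKM in no library of one fraction passed the filter through the other fraction alone, which fixes its direction, and such members are counted beside the lists that hold many of them.

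The depth was similar among libraries. The RPKM steps of low genes corresponded to about 22700000 and 22900000 read pairs in the LL2 CAF libraries, and counts over 1 transcript per gene summed to about 14800000, 19100000 and 16300000 in LL2 tumors 1, 2 and 3. Across genes, the log2 values of the 2 CAF libraries correlated at r = 0.996, those of tumors with each other at 0.984 to 0.989, and those of CAFs with tumors at 0.935 to 0.956. Among the 100 genes of highest level in CAFs, 49 were also among the 100 highest in tumors. Tumors 2 and 3 contained skeletal muscle RNA, with *Acta1* (skeletal muscle actin) at 215 and 217 RPKM against 0.417 in tumor 1 and 0.36 and 0.253 in the CAFs.

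The sort was visible in its own markers. *Fap* was at 9.24 and 9.91 RPKM in the CAFs and at 0.594, 0.572 and 0.507 in the tumors, a centred difference of 2.32 on the log2 scale. *Ptprc*, which encodes CD45, was at 0.017 and 0.021 RPKM in the CAFs, under the level that 3 reads give in both, and at 3.85, 5.29 and 12.4 in the tumors. Both genes separated the fractions completely, in the directions of the gates used for the sort.

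**Figure D1:**
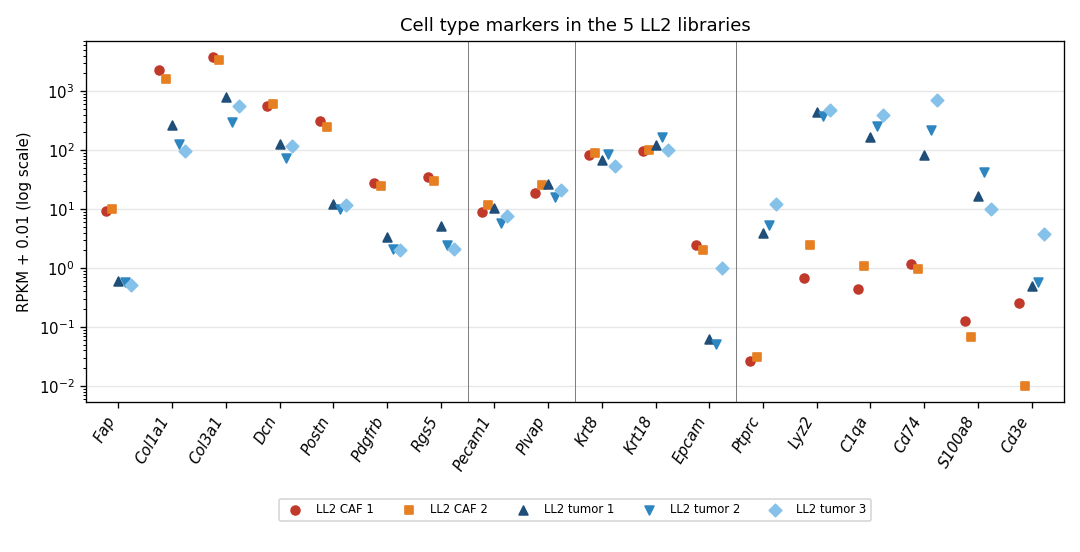
RPKM (plus 0.01, log axis) of 18 marker genes in each of the 5 LL2 libraries, with vertical lines between fibroblast and pericyte, endothelial, epithelial and leukocyte markers. Fibroblast markers lie higher in both CAF libraries, leukocyte markers lie higher in the 3 tumors, and endothelial markers such as *Pecam1* (9.04 and 11.5 RPKM in CAFs, 5.82 to 10.5 in tumors) overlap.

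Fibroblast genes were the most uniform group on the CAF side. Of 18 pan-fibroblast genes, 17 were called higher in CAFs, 0 were higher in tumors, and the median difference was 2.35 against 0 for all genes. By percentile ranks within each library, where a call needs 10 points and genes near the top have little room to move, 10 of the 18 were called. The summed level of the list was 9908 and 11368 RPKM in the CAF libraries and between 1030 and 2011 in the tumors. *Col3a1*, encoding the fibrillar collagen III of soft tissue, was the second most abundant gene of the CAFs after the elongation factor gene *Eef1a1*, with 3799 and 3443 RPKM against 784, 297 and 571 in tumors. *Dcn*, the collagen-binding proteoglycan decorin, was at 551 and 604 RPKM against 125, 72.4 and 119. *Pdgfrb*, a receptor for platelet-derived growth factor on fibroblasts and pericytes, was at 27.7 and 24.8 RPKM against 3.36, 2.09 and 2.03. The only member without a call was *Pdpn* (podoplanin), at 30.4 and 28.7 RPKM in CAFs and 13, 21.1 and 9.83 in tumors, a difference of 0.58.

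The fibrillar collagens showed the size of this contrast. *Col1a1* and *Col1a2* encode the chains of collagen I, the main load-bearing fibre. *Col1a1* was at 2260 and 1595 RPKM in CAFs and at 268, 130 and 97.7 in tumors, a difference of 3.20, and *Col1a2* was at 1161 and 872 against 119, 67.6 and 47.6, a difference of 3.33. Even the lowest CAF library stood above the highest tumor for both genes, and among the tumors the level was highest in tumor 1. Of 9 fibrillar collagen genes kept, 7 were called higher in CAFs, and *Col2a1*, the cartilage collagen, was higher in tumors (0.434, 2.11 and 1.1 RPKM against 0.117 and 0.259). *Col2a1* passed the filter through the tumors alone, and 2 genes passed it through the CAFs alone, 1 of them called. The other 6 were all higher in CAFs. By ranks 3 of the 9 were called, and *Col2a1* was not called without centring. The 150 bases before the RefSeq start of *Col1a2* (GRCm38.p6, chr6:4505468-4505617, + strand) are printed because this gene had the largest difference of the list, with a match to the CCAAT motif in capitals.
Col1a2: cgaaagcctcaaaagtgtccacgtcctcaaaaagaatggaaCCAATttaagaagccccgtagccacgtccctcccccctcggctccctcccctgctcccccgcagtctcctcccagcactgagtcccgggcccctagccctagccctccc
The motif CCAAT, searched on both strands of the 250 bases before the start, was found in 3 of 8 fibrillar collagen promoters and in 37.5% of all 27025 promoters, the same share.

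Other matrix genes followed. Among 39 matrix glycoprotein and proteoglycan genes, 30 were called higher in CAFs and 0 in tumors, with a median of 1.76. *Postn*, encoding the matrix protein periostin, had the largest difference of all genes that share under 25% of their sequence words with another gene's transcripts, with 317 and 249 RPKM in CAFs against 12.4, 10.1 and 11.6 in tumors, a difference of 4.07. *Fbn1* (fibrillin-1, the core of elastic microfibrils) was at 167 and 143 RPKM against 16.4, 4.85 and 13.1, and *Mfap5*, another microfibril gene, was at 76.9 and 76.4 against 4.58, 7.45 and 2.94. *Fn1* (fibronectin) was at 999.6 and 977 RPKM against 214, 74.9 and 151. All 4 genes were thus several times higher in both CAF libraries than in any tumor. *Spp1* (osteopontin), which macrophages and cancer cells also make, differed less, with 739 and 862 RPKM against 401, 213 and 210, a difference of 1.16.

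The enzymes that build and cut the matrix were higher in CAFs to a lesser degree. Of 24 collagen processing genes, 10 were called higher in CAFs and 0 in tumors (median 0.77), among them *Loxl1*, a crosslinking lysyl oxidase, at 110 and 95.7 RPKM against 11.3, 19.6 and 14. *Serpinh1*, the collagen chaperone HSP47, was at 642 and 644 RPKM against 229, 202 and 215. Among 25 metalloproteinase, ADAMTS and TIMP genes, 15 were higher in CAFs and 1, *Mmp9*, in tumors. The gelatinase gene *Mmp2* was at 200 and 167 RPKM in CAFs against 17.5, 18.1 and 17.2, whereas *Mmp9*, a gelatinase of neutrophils and macrophages, was at 4.17 and 3.85 against 9.2, 23.6 and 6.82. The stromelysin gene *Mmp3* was at 221 and 264 RPKM in CAFs and reached 117 in tumor 1, against 21.4 and 23.7 in tumors 2 and 3. Among 15 kept non-fibrillar collagens, 8 were higher in CAFs and 0 in tumors (median 1.18), with *Col6a3* at 144 and 129 RPKM against 20.8, 8.09 and 15.1.

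**Figure D2:**
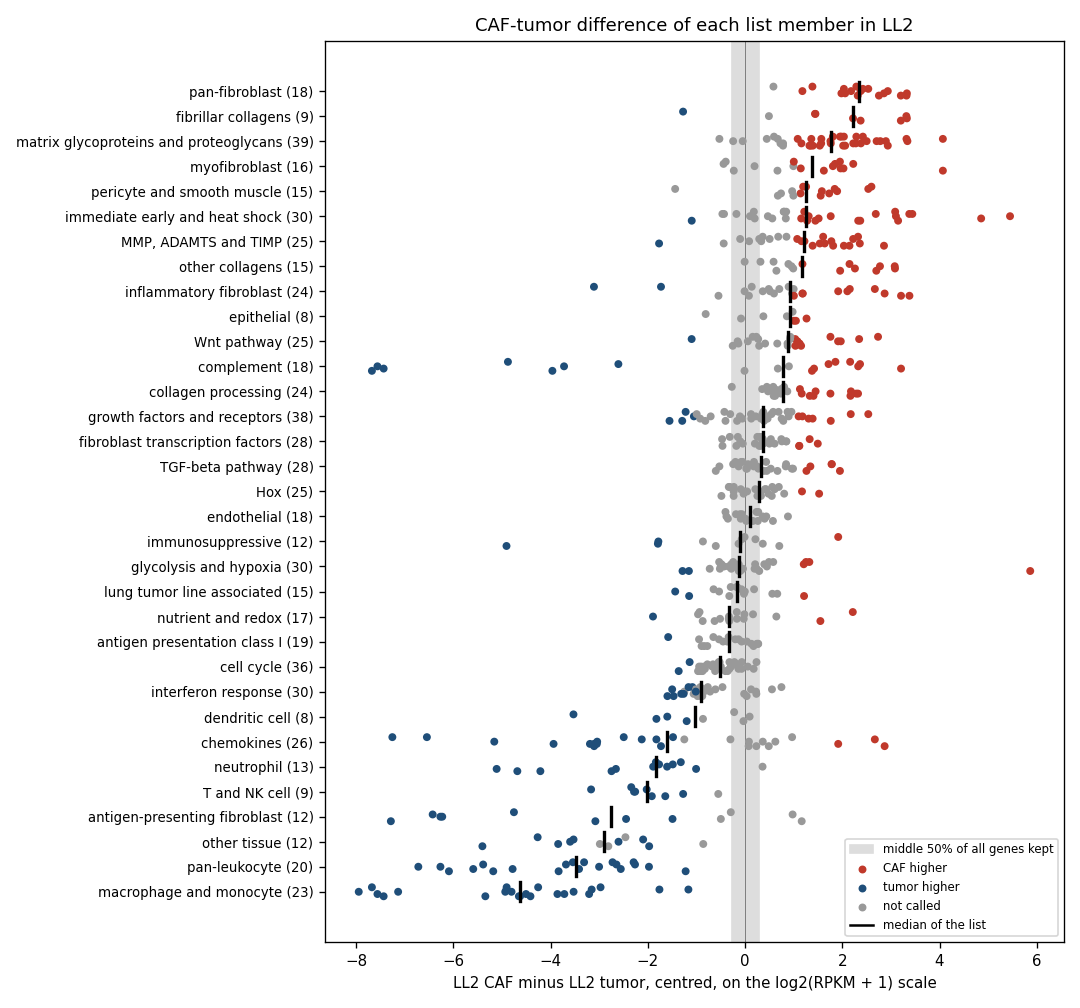
Centred log2(RPKM + 1) of LL2 CAFs minus LL2 tumors for each kept gene of the 33 lists with at least 5 kept genes, with red for genes called higher in CAFs, blue for genes called higher in tumors, grey for the rest, a black tick at the list's median and a grey band over the middle 50% of all genes. Fibroblast and matrix lists lie to the CAF side (pan-fibroblast median 2.35), leukocyte lists to the tumor side (macrophage median -4.63), and the endothelial list within the band at 0.09.

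The markers of fibroblast subtypes were not alike. Of 16 myofibroblast genes, 10 were higher in CAFs and 0 in tumors (median 1.38). *Acta2*, the smooth muscle actin of contractile cells, was at 43.6 and 40 RPKM against 10.1, 10.1 and 7.59, and *Lrrc15*, a surface protein of matrix-producing CAFs, was at 20.2 and 20.6 against 4.79, 2.83 and 1.94. Of 24 inflammatory fibroblast genes, 10 were higher in CAFs and 2 (*Ccl8* and *Cxcl2*) in tumors (median 0.93). The groups of *Cxcl2* overlapped before centring. *C3*, the central complement component, was at 245 and 212 RPKM against 10.9, 13.4 and 33.8, and *Clec3b* (tetranectin) at 63.7 and 77.3 against 2.32, 5.55 and 4.8. *Cxcl12*, a chemokine that retains T cells and myeloid cells, was at 64.5 and 54.9 RPKM against 5.66, 19.7 and 10.8. Markers of both types were therefore higher in the same 2 libraries.

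Genes listed for antigen-presenting fibroblasts went the other way, with 0 higher in CAFs and 8 of 12 higher in tumors (median -2.76). *Cd74*, the invariant chain of MHC class II, was at 1.15 and 0.935 RPKM in CAFs and at 81.5, 219 and 702 in tumors. *H2-Aa*, an MHC class II chain, was at 0.582 and 0.412 against 30.1, 95.3 and 278. Of the 12 genes, 4 passed the filter through the tumors alone, and of the other 8, 4 were higher in tumors. Macrophage genes moved with this list, summing to 43.6 and 45.1 RPKM in CAFs and 1644 to 2916 in tumors, and their part in it was not tested. Pericyte and smooth muscle genes, by contrast, were on the CAF side. Of 15 kept genes, 6 passed the filter through the CAFs alone, and of the other 9, 8 were higher in CAFs and 0 in tumors. *Rgs5*, a pericyte regulator of G protein signalling, was at 34.8 and 29.9 RPKM against 5.26, 2.42 and 2.06, and *Kcnj8*, a potassium channel gene of pericytes, at 8.05 and 8.32 against 1.22, 0.812 and 0.649.

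Leukocyte genes were the most uniform group on the tumor side. All 20 pan-leukocyte genes and all 23 macrophage and monocyte genes were called higher in tumors, with medians of -3.48 and -4.63. Of these, 15 and 16 passed the filter through the tumors alone, and the other 5 and 7 were called in the same direction. *Lyz2* (lysozyme of myeloid cells) had the most negative difference of all genes, -7.95, with 0.673 and 2.42 RPKM in CAFs against 450, 378 and 472 in tumors. The macrophage-made chains of complement C1q came next, with *C1qa* at 0.431 and 1.06 RPKM against 164, 258 and 398. *Ctss* (cathepsin S) was at 0.36 and 0.454 RPKM against 94.3, 132 and 240, and *Ccl6*, a myeloid chemokine, at 0.108 and 0.153 against 95.9, 185 and 112. *C1qa*, *Ctss* and most other macrophage genes were highest in tumor 3.

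Lymphoid and granulocyte genes were lower in level. Every T, NK or dendritic cell gene called higher in tumors passed the filter through the tumors alone, which fixed its direction. Of 28 T and NK cell genes, 9 passed the filter, 8 of them through the tumors alone, and tumor 3 was the highest in each of those 8, as in *Gzmb* (granzyme B) at 1.7, 5.72 and 15.5 RPKM against 0.029 and 0 in CAFs. Of 13 kept neutrophil genes, 9 passed the filter through the tumors alone, and of the other 4, 3 were higher in tumors. Tumor 2 was the highest for *S100a9* (calprotectin) at 61.4 RPKM against 22 and 13.4, and 0.17 and 0 in CAFs. Of 8 dendritic cell genes, 4 were higher in tumors, all of which passed the filter through the tumors alone, and no B cell gene of 12 reached the filter. The pan-leukocyte list summed to 57.1 and 62 RPKM in the LL2 CAFs and to between 406 and 851 in the LL2 tumors.

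Endothelial genes were not separated by the sort. Of 18 kept endothelial markers, 0 were called in either direction, and the median difference was 0.09. *Pecam1*, which encodes the endothelial adhesion protein CD31, was at 9.04 and 11.5 RPKM in CAFs and at 10.5, 5.82 and 7.57 in tumors. *Cdh5* (VE-cadherin) was at 8.49 and 10.6 RPKM against 9.9, 3.66 and 4.2, and *Plvap*, a protein of endothelial fenestrae, was at 19 and 25.3 against 26.6, 16.1 and 21.4. In all 3 genes the groups overlapped, and tumor 1 lay within or above the range of the CAFs. The summed level of the list was 139 and 167 RPKM in CAFs and 86.3 to 135 in tumors before centring. The CAF libraries thus held endothelial transcripts beside those of fibroblasts and pericytes.

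Genes restricted to LL2 tumors among the tumor models were examined next. The series holds no library of the cultured LL2 line, so the cells these genes came from were not tested. From the tumor table alone, genes were taken that had at least 5 RPKM in each LL2 tumor and at least 8 times less in each of the 12 tumors of the other models, B16 included. There were 2 such genes, *Dkk2* and *Slc38a4*. *Dkk2* (NM_020265, mm10 chr3:132085292-132180304, + strand), which encodes a secreted modulator of Wnt receptors, was at 133 and 156 RPKM in the LL2 CAFs and at 75.1, 48.5 and 80.2 in the LL2 tumors, a centred difference of 0.66. In the 6 CAF libraries of other models it was between 0.771 and 3.52 RPKM, and in the other tumors at most 0.814. By limma across all genes the LL2 CAFs exceeded the other CAFs in *Dkk2* by 5.74 (SE 0.25) on the log2(RPKM + 1) scale, with an adjusted p of 4.43e-10. *Slc38a4*, an amino acid transporter gene, was at 11.9 and 12.8 RPKM in the LL2 CAFs, 9.2, 10.2 and 8.32 in the LL2 tumors and at most 0.648 in other CAFs. The centred difference of *Slc38a4* was -0.06, so neither gene differed by 2-fold between LL2 CAFs and LL2 tumors after centring. Centring took 0.45 off each difference. Before it *Dkk2* exceeded 2-fold, with means of 145 RPKM in LL2 CAFs and 68 in LL2 tumors.

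The region before the *Dkk2* start (RefSeq, GRCm38.p6, chr3:132085142-132085291, + strand) is printed because this gene carried the clearest LL2-restricted signal. Capitals mark a match to TATAAA at -32 from the start, and one to CCAAT on the opposite strand at -65, which appears here in its reverse complement.
Dkk2: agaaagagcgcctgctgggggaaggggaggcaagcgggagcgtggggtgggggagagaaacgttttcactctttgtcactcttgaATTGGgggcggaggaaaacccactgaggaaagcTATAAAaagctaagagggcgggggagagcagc
The motif TATAAA on either strand of the 250 bases before the start was present in 14.3% of all promoters.

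Widening the rule to 4 times less in every other tumor, a threshold chosen after the data were seen, gave 10 genes. In both LL2 CAF libraries all 10 were above every other CAF library, a pattern shown by 9.24% of all 14268 genes fitted, and limma called all 10 higher in LL2 CAFs than in other CAFs (17.5% of all genes were called higher and 20.3% lower in that comparison). Their median difference between LL2 CAFs and LL2 tumors was -0.04, close to that of all genes, and ranged from -1.28 in *Nptx1* to 0.66 in *Dkk2*. *Itgb7*, an integrin chain, was at 55.9 and 62.7 RPKM in the CAFs and at 88.7, 91.5 and 98.2 in the tumors, against at most 4.92 in other CAFs. Its difference was -1.09, so *Itgb7* and *Nptx1* met the 2-fold rule for genes higher in tumors, but only with the 0.45 taken off by centring. *Ntn1* (the guidance factor netrin-1) was at 85.4 and 85 RPKM against 60.1, 40.5 and 70.1, and at most 21.9 in other CAFs. The other models gave similar pictures by the rule of 8 times, with 17 of 17 EO771, 9 of 9 MC38 and 34 of 35 Pan02 genes above every other CAF library in their own CAFs, and medians of -0.33, 0.11 and 0.20.

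**Figure D3:**
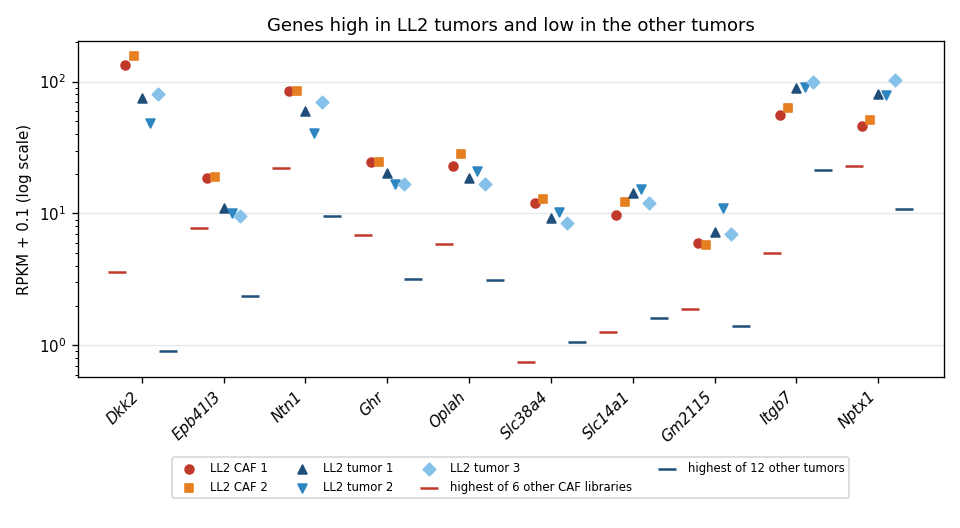
RPKM (plus 0.1, log axis) of the 10 genes restricted to LL2 tumors at 4 times, in the 2 LL2 CAF and 3 LL2 tumor libraries, with dashes at the highest of the 6 other CAF libraries and the highest of the 12 other tumors. In every gene the LL2 CAFs lie above both dashes, for *Dkk2* at 133 and 156 RPKM against 3.52 and 0.814. *Nptx1* (centred difference -1.28) and *Itgb7* (-1.09) met the 2-fold rule for genes higher in tumors only after centring.

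Some epithelial and line-associated genes were also present in both fractions. *Krt8*, a keratin of simple epithelia, was at 84.2 and 90.5 RPKM in CAFs and at 67.8, 86.1 and 52.9 in tumors, and its partner *Krt18* was at 97.2 and 101 against 125, 167 and 99.9. *Hmga2*, an architectural chromatin gene of embryonic and cancer cells, was at 57.2 and 71.6 RPKM against 69, 84.1 and 54.5. None of the 3 was called, and each differed by less than 2-fold. These levels were not all particular to LL2. In other CAFs *Krt8* ranged from 0.241 RPKM in MC38 to 545 in Pan02. *Krt18* ranged there from 0.116 in MC38 to 483 in Pan02, and *Hmga2* from 0.033 in Pan02 to 18.5 in EO771. Some epithelial genes of low level were even higher in the CAF libraries, such as *Epcam*, at 2.46 and 1.98 RPKM against 0.0528, 0.0411 and 0.989, and *Cldn3* (a tight junction claudin), at 2.73 and 2.43 against 0.172, 0.357 and 0.415. Of 8 kept epithelial genes, 5 passed the filter through the CAFs alone, among them all 3 that were called higher in CAFs, and the other 3 were not called. *Peg10*, a retrotransposon-derived imprinted gene, was at 17.2 and 19.1 RPKM in CAFs and 8.1, 3.37 and 4.59 in tumors, against at most 2.75 in other CAFs. *Nefl*, a neurofilament gene, was lower in CAFs than in tumors, with 1.73 and 1.75 RPKM against 4.01, 5.36 and 4.07, yet it was at most 0.059 in other CAFs. How much RNA of cancer cells the LL2 CAF libraries held was not tested beyond these levels.

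Proliferation genes differed by less than 2-fold in most cases. Of 36 cell cycle genes, 27 had all tumors above both CAF libraries after centring, against 29.3% of all genes, and the median was -0.51. At 2-fold, 2 were called higher in tumors (*Ube2c* and *Cenpa*) and 0 in CAFs. The count depended on the scaling, with 0 called without centring, 11 after rescaling to the same total and 15 by ranks. Among 30 glycolysis and hypoxia genes, 4 were higher in CAFs and 2 in tumors (median -0.13). Of the 4, *Gapdh*, *Pgk1* and *Pgam1* share at least 25% of their sequence words with other genes' transcripts, and *Eno2* has no such value. The 2 higher in tumors were *Car9*, a hypoxia-induced carbonic anhydrase, and *Adm* (adrenomedullin), at 32.1 and 42.3 RPKM against 64.7, 110 and 31.6. Tumor 2 was the highest for both, and the groups of *Adm* overlapped before centring. Without centring 0 of the 30 were called higher in tumors.

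Immediate early genes, which cells switch on within minutes of a stimulus, and heat shock genes were higher in the CAF libraries. Of 30 such genes, 17 were called higher in CAFs and 1 in tumors, with a median of 1.25. *Fos*, a subunit of the transcription factor AP-1, was at 179 and 114 RPKM in CAFs and at 5.81, 37.4 and 15.8 in tumors. Its partner *Jun* was at 734 and 471 RPKM against 77.1, 88.6 and 90.2, and the zinc finger factor *Egr1* at 205 and 106 against 4.21, 21.6 and 14.7. In each of the 3 genes CAF library 1 was the highest and tumor 1 the lowest. The chaperone gene *Dnajb1* was at 407 and 195 RPKM against 18.9, 21.5 and 16.7, a difference of 3.38. *Fosl1*, another AP-1 subunit, was the member higher in tumors, at 119, 207 and 138 RPKM against 104 and 87.6 in CAFs, but it was not called without centring. *Myc* was at 578 and 248 RPKM in CAFs and 174, 239 and 160 in tumors and was not called.

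CAF library 1 was above library 2 in 28 of the 30 genes, by a median of 0.65 on the log2 scale, while among all kept genes it was above in 24.1%, with a median of -0.11. Tumor 2 was the highest tumor in 26 of the 30 and tumor 1 the lowest in 21. The median of the list was 1.94 in EO771, 0.65 in MC38 and 1.32 in Pan02, so the genes were on the CAF side in every model. Only the CAFs went through the digestion, which was overnight at 4 °C and then more briefly at 37 °C. Digestion and cell fraction cannot be told apart.

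**Figure D4:**
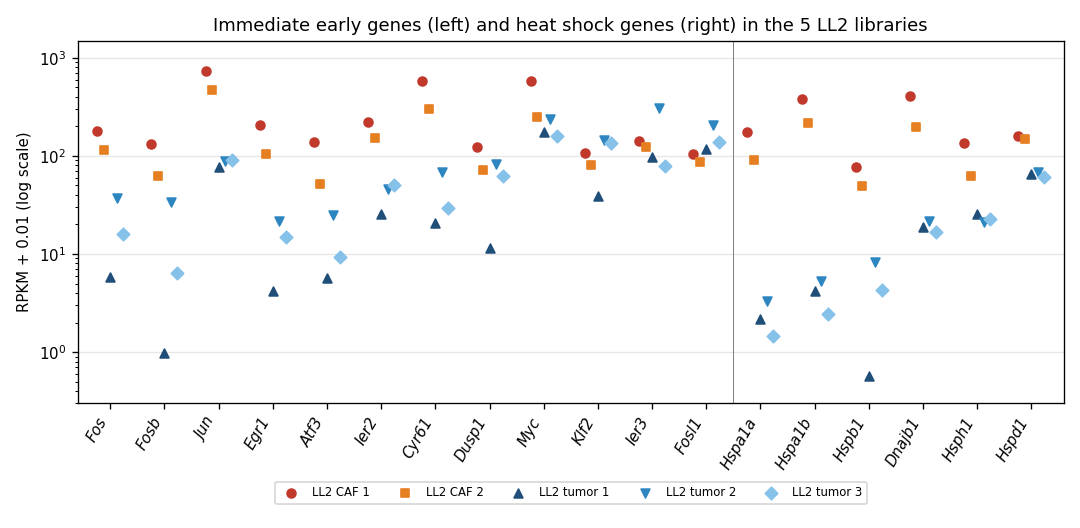
RPKM (log axis) of 12 immediate early genes (left) and 6 heat shock genes (right) in the 5 LL2 libraries. The CAF libraries lie above the tumors for *Fos*, *Jun* and *Egr1*, CAF library 1 lies above library 2 for most genes, and *Fosl1* (104 and 87.6 RPKM in CAFs, 119 to 207 in tumors) goes the other way.

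The promoters of *Fos*, *Jun* and *Hspb1* (a small heat shock protein, at 76.5 and 49.8 RPKM against 0.563, 8.21 and 4.31) are printed to show these fast-responding genes, as the 150 bases before the RefSeq start in GRCm38.p6. They lie at chr12:85473740-85473889 (+ strand), chr4:95052223-95052372 (− strand) and chr5:135887769-135887918 (+ strand), each written along its gene's strand, and capitals mark a match to TATAAA in *Fos*, to CCAAT in *Jun*, and to GAANNTTC, a core of the heat shock element, in *Jun* and *Hspb1*.
Fos: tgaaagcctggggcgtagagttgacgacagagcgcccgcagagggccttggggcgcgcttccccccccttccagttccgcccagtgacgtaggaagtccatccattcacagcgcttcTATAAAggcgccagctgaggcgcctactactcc
Jun: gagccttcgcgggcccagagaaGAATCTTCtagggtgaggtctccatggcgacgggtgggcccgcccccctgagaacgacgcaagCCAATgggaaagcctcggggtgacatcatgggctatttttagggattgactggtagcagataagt
Hspb1: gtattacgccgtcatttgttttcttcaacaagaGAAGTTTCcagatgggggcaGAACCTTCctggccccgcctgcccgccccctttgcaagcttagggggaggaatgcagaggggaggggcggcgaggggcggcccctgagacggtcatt
On either strand of the 250 bases before the start, GAANNTTC was present in 6 of 24 promoters of the list (*Hspa1a*, *Hspa1b*, *Hspb1*, *Hspd1*, *Hspe1* and *Jun*) and in 7.73% of all promoters. The AP-1 motif TGANTCA was in 0 of the 24 and in 7.82% of all promoters. *Hspa1a*, *Hspa1b* and *Hspb1* share 64.5% to 68.4% of their sequence words with transcripts of other genes, so their levels are uncertain.

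Secreted signals were split between the fractions. Among 26 chemokine genes, 3 were higher in CAFs (*Ccl11*, *Cxcl12* and *Cxcl14*) and 14 in tumors, of which 9 passed the filter through the tumors alone. *Ccl11* (eotaxin) was at 75.1 and 77.7 RPKM in CAFs against 7.23, 5.55 and 7.7, and *Cxcl14* at 67.7 and 56.4 against 1.69, 7.2 and 16.2. *Ccl8*, a monocyte attractant, was at 21.5 and 17.2 RPKM in CAFs against 58.8, 189 and 184 in tumors, and *Cxcl16* was at 3.21 and 3.13 against 8.31, 16 and 31.4. The complement list split in the same way, with 8 genes higher in CAFs and 7 in tumors, 5 of these through the tumors alone. Only 3 of the 8 are known to share under 25% of their sequence words with other genes' transcripts, against all 7 on the tumor side. *C3*, the C1 inhibitor gene *Serping1* (126 and 120 RPKM against 10.8, 18.1 and 25.2) and *C4b* were on the CAF side, while the C1q chains and the receptors *C3ar1* and *C5ar1* were on the tumor side.

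Among 28 genes of the TGF-beta pathway, 5 were higher in CAFs and 0 in tumors (median 0.33). *Tgfb3*, a ligand, was at 27 and 29.3 RPKM against 10.3, 5.81 and 6.8, the receptor gene *Tgfbr2* at 81.3 and 75.4 against 23.7, 20 and 26.6, and *Lrrc32* (GARP, which holds latent TGF-beta on the cell surface) at 20.6 and 17.3 against 3.62, 2.76 and 3.37. Of 25 Wnt pathway genes, 10 were higher in CAFs, 3 of which passed the filter through the CAFs alone, and 1 was higher in tumors. Those higher in CAFs included the receptor gene *Fzd1* (21.3 and 15.3 RPKM against 3.02, 2.64 and 3.86) and the secreted inhibitors *Sfrp2* (42.6 and 37.5 against 8.05, 5.4 and 2.57) and *Sfrp4* (31.8 and 32.8 against 1.86, 4.37 and 2.23). The ligand *Wnt7b* was higher in tumors, at 25.6, 30.9 and 26.6 RPKM against 17.5 and 16.9, but was not called without centring. Of 38 growth factor and receptor genes, 7 were higher in CAFs and 4 in tumors, with *Hgf* (hepatocyte growth factor, which acts on epithelial MET) at 5.79 and 6.03 RPKM against 1.3, 0.488 and 1.12, and *Areg* (amphiregulin) at 18.4 and 17.6 against 21.8, 50.5 and 19.6. Without centring these counts were 14 and 0.

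The remaining lists differed less. Among 12 immunosuppressive genes, 1 (*Cxcl12*) was higher in CAFs and 3 in tumors, among them *Arg1* (arginase 1) at 1.85 and 2.24 RPKM against 82.8, 73.9 and 46.7. Of 30 interferon response genes, 8 were higher in tumors and 0 in CAFs (median -0.90). Without tumor 3 the counts were 0 and 2 (median -0.25), and without tumor 1 they were 21 and 0 (median -1.41). Tumor 3 was the highest tumor for all 30, as in *Irf7* at 9.68, 25.9 and 65.4 RPKM in the tumors against 10.5 and 11.6 in CAFs, so that tumor 1 lay under the CAFs for *Irf7* before centring. Among 19 class I antigen presentation genes 1 was higher in tumors and 0 in CAFs, and 0 were called in tumors without centring. Of 28 fibroblast transcription factor genes, 4 were higher in CAFs (*Prrx2*, *Osr2*, *Nr2f1* and *Ebf1*) and 0 in tumors, and of 25 *Hox* genes, 2 were (*Hoxc6* and *Hoxc10*, both under 1 RPKM in every tumor). Of 17 nutrient and redox genes, 2 were higher in CAFs, and *Hmox1* (heme oxygenase 1) was higher in tumors, at 276, 242 and 79.5 RPKM against 72.6 and 55.3. Of 15 genes associated with lung tumor lines, 1 was higher in CAFs and 2 in tumors, against 3 and 0 without centring. Of 12 kept genes of muscle, blood and other tissues, 8 were higher in tumors, all of which passed the filter through the tumors alone, and 2 of the 8 share under 25% of their words. Without tumor 2 or tumor 3 the calls were 3 and 4. In tumors the hemoglobin gene *Hbb-bs* was at 51.7, 20.7 and 7.3 RPKM against 0.279 and 0.76.

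The largest differences toward CAFs need a separate reading. The 10 genes at the top were 7 ribosomal protein genes, *Fau*, *Ppia* and *Gapdh*, with differences between 5.63 (*Fau*) and 7.04 (*Rps27rt*). *Gapdh*, the glycolysis enzyme, was at 624 and 719 RPKM in LL2 CAFs and at 6.71, 11.2 and 5.41 in LL2 tumors, and it differed by 6.74 in EO771, 6.01 in MC38 and 6.09 in Pan02. Most of these genes have near-identical copies in the genome, and 60 of 83 ribosomal protein genes were called higher in CAFs. The count was 54 of 65 for those that share at least 25% of their 31-base words with transcripts of other genes, and 3 of 11 for those that share less. Among all genes, 16.4% of the 842 that share 50% or more were called higher in CAFs, against 4.57% of the 10002 that share under 25%. The levels of such genes are uncertain, and the counting of shared reads and the cell fraction cannot be told apart.

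To ask where the CAF-tumor difference of LL2 departed from that of EO771, MC38 and Pan02, limma was fitted to 20 libraries and 14268 genes. The contrast was LL2 CAFs minus other CAFs, less LL2 tumors minus other tumors, so that each subtraction stayed within 1 table. At an adjusted p under 0.05, 215 genes (1.51%) had a higher and 241 (1.69%) a lower CAF-tumor difference in LL2. Of the 215, 159 were also higher in LL2 CAFs than in other CAFs and 82 were lower in LL2 tumors than in other tumors. Many genes set LL2 apart in both fractions, with 1717 genes higher in LL2 CAFs and in LL2 tumors, 69% of those higher in the CAFs and 58% of those higher in the tumors. In LL2 tumors against other tumors, 20.8% of genes were called higher and 20.2% lower. The calls rested on few libraries, with 12 higher and 7 lower without LL2 CAF library 1, 14 and 17 without LL2 CAF library 2, and 53 and 71 without LL2 tumor 2. Of the 12 genes named by size, 1 (*Cbr2*) stayed called without either LL2 CAF library, and 6 without LL2 tumor 2. The contrast is against the mean of 3 models, so a called gene may be alike in LL2 and 1 other model. Leaving out both fractions of MC38, whose CAF libraries stood apart from each other (*Col1a1* at 2771 and 467 RPKM), gave 500 and 718.

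By the centred calls, the other models had 8.18% of genes higher in CAFs and 4.19% higher in tumors in EO771, 11.5% and 9.8% in MC38, and 2.98% and 10.7% in Pan02. The pan-fibroblast median of 2.35 in LL2 compared with 3.28 in EO771, 1.43 in MC38 and -0.61 in Pan02. Of the 18 pan-fibroblast genes 0 had an LL2-specific difference by limma at an adjusted p under 0.05. That count depended on MC38, since without all MC38 libraries 8 of the 18 were called higher and 0 lower.

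*Mmp12*, the macrophage elastase gene, had the largest LL2-specific difference, 5.17 (SE 0.86, adjusted p = 0.00852). It was at 34 and 42.4 RPKM in LL2 CAFs and at 15.3, 3.35 and 3.84 in LL2 tumors. In EO771 it was at 4.83 and 4.98 RPKM in CAFs against 23 to 29.3 in tumors, and in the MC38 and Pan02 CAFs it was at most 0.124. *Mmp12* was thus higher in CAFs than in tumors in LL2 and lower in the other 3 models. Without LL2 CAF library 1 or 2 its adjusted p was 0.080 or 0.070.

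*Postn* had an LL2-specific difference of 3.19 (SE 0.70, adjusted p = 0.0235), which lay in the tumors. LL2 tumors were below other tumors by 3.18 on the log2 scale (difference -3.18, adjusted p = 4.09e-05), whereas LL2 CAFs differed from other CAFs by 0.02 (adjusted p = 0.987). *Penk* (proenkephalin, an opioid peptide precursor that fibroblasts also express) was at 17.1 and 15.4 RPKM in LL2 CAFs against 0.56, 0.632 and 1.57 in LL2 tumors, a specific difference of 2.61 (SE 0.57, adjusted p = 0.0235), and the CAF-tumor difference in MC38 was also positive, at 1.82. *Spon1*, encoding the matrix protein spondin-1, was at 37.2 and 29.9 RPKM against 2.21, 3.22 and 2.78, a specific difference of 2.45 (SE 0.57, adjusted p = 0.0315). As with *Postn*, LL2 tumors were below other tumors (difference -1.87, adjusted p = 0.000693), LL2 CAFs differed from other CAFs by 0.58 (adjusted p = 0.327), and the CAF-tumor difference was 2.76 in LL2 and 2.30 in EO771. *Trp53i11*, a p53-inducible gene, was at 37.6 and 47.1 RPKM against 21.5, 4.37 and 10.4, a specific difference of 2.09 (SE 0.45, adjusted p = 0.0234). Pan02 CAFs had a similar level, at 42.1 and 59.7 RPKM against 16.9 to 22.6 in Pan02 tumors. The row of *Mir207* had a specific difference of 2.26 (SE 0.44, adjusted p = 0.0154), with 17.3 and 12.9 RPKM in LL2 CAFs against 0.463, 0.54 and 1.05 in tumors. All of these LL2 tumor values were at or under the level that 3 reads give. The CAF-tumor difference of *Mir207* was 2.81 in LL2, 1.70 in EO771 and 1.75 in Pan02, but -1.86 in MC38. This 78-base microRNA precursor lies within the chaperone gene *Dnaja1* on the same strand (mm10 chr4:40722917-40722995 within chr4:40722468-40734965), so its reads cannot be told apart from those of *Dnaja1*, which was at 34.7 and 28.7 RPKM against 9.17, 9.56 and 9.01.

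The genes with the most negative LL2-specific difference included leukocyte genes that were nearly absent from the LL2 CAFs. *Cbr2*, a carbonyl reductase gene, had the smallest adjusted p of the 12 named by size, with a difference of -4.30 (SE 0.42, adjusted p = 0.000433). It was at 0.459 and 0.346 RPKM in LL2 CAFs and at 44.2, 69.1 and 52.1 in LL2 tumors, while Pan02 CAFs had 57.5 and 42.8 against 39.4, 50.7 and 86.4 in Pan02 tumors. The neutrophil chemokines *Cxcl2* and *Cxcl3* had differences of -3.57 (SE 0.86, adjusted p = 0.0367) and -3.52 (SE 0.70, adjusted p = 0.017). *Cxcl2* was at 10.4 and 3.42 RPKM in LL2 CAFs and 8.28, 44.6 and 11.1 in LL2 tumors, and its CAF-tumor difference was -1.73 in LL2 and -1.78 in MC38 but 3.44 in EO771 and 3.81 in Pan02. *Cxcl3* was at 0.786 and 0.411 RPKM in LL2 CAFs and 7.76, 22.4 and 4.88 in LL2 tumors, but at 30.6 and 36 in Pan02 CAFs against 3.45 to 21.3 in Pan02 tumors. *S100a8* and *S100a9*, the calprotectin genes of neutrophils, had differences of -3.18 (SE 0.62, adjusted p = 0.0159) and -3.33 (SE 0.64, adjusted p = 0.015). *S100a9* was at 22, 61.4 and 13.4 RPKM in LL2 tumors against 0.189 to 8.62 in tumors of the other 3 models, and all 8 CAF libraries were at or under 0.269. *Pf4*, a platelet and macrophage chemokine, was at 0.114 and 0.488 RPKM in LL2 CAFs and 90.9, 142 and 51.2 in LL2 tumors, with a difference of -3.18 (SE 0.80, adjusted p = 0.0441). EO771 CAFs carried more leukocyte RNA than LL2 CAFs, with 234 and 276 RPKM over the pan-leukocyte list against 57.1 and 62, and its part in these differences was not tested.

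**Figure D5:**
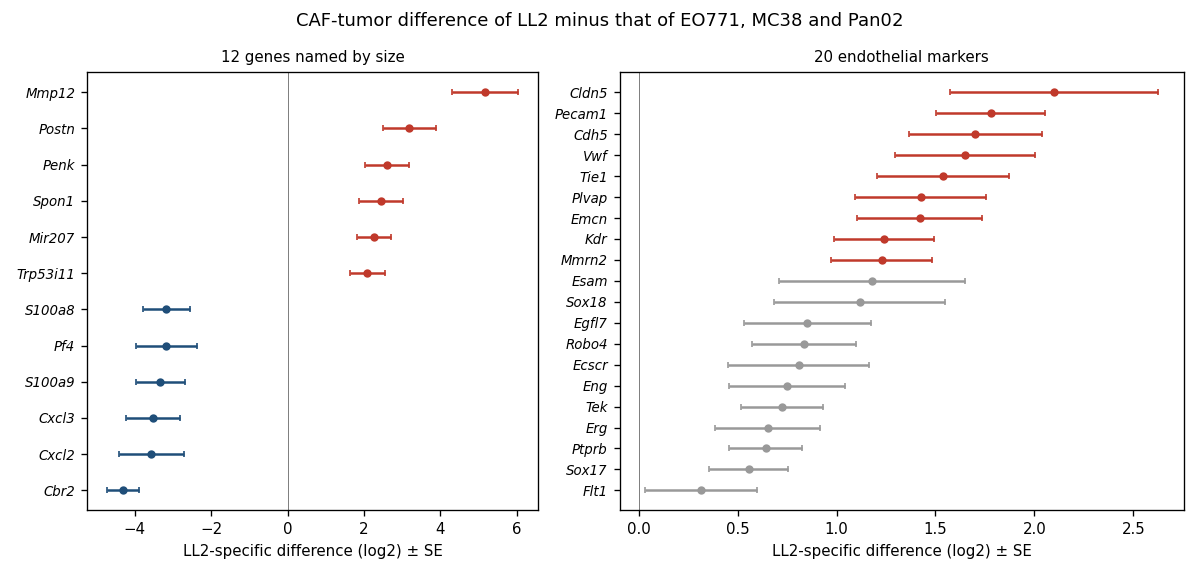
LL2-specific CAF-tumor difference on the log2(RPKM + 1) scale, with bars of 1 SE, for the 12 genes named by size (left) and the 20 endothelial markers (right), red for higher and blue for lower at an adjusted p under 0.05 by limma, grey for the rest. *Mmp12* (5.17) and *Cbr2* (-4.30) lie at the ends, and 9 endothelial markers are called, all higher, where 1.51% of all genes were called higher.

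The endothelial list had 9 of its 20 genes called higher in the LL2-specific contrast, against 1.51% of all genes, and 0 lower, with a median of 1.15. They were *Cldn5*, *Pecam1*, *Cdh5*, *Vwf*, *Tie1*, *Plvap*, *Emcn*, *Kdr* and *Mmrn2*. The specific difference was 1.78 in *Pecam1* (adjusted p = 0.00592), 1.70 in *Cdh5* (adjusted p = 0.0169) and 2.10 in *Cldn5*, a claudin of tight vessels (adjusted p = 0.0425). *Pecam1* was at 2.68 and 2.18 RPKM in MC38 CAFs and 2.26 and 1.63 in Pan02 CAFs, but at 9.73 and 9.57 in EO771 CAFs, near the values in LL2 CAFs. The median CAF-tumor difference of the list was 0.09 in LL2, -0.46 in EO771, -1.09 in MC38 and -2.14 in Pan02. Leaving out LL2 CAF library 1, LL2 CAF library 2, LL2 tumor 2 or LL2 tumor 3 left 1, 0, 1 and 4 genes called, and leaving out all MC38 libraries left 13.

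Of the other lists, neutrophil genes had 4 of 14 members lower in the LL2-specific contrast and 0 higher, against 1.69% of all genes, but 0 were called without LL2 CAF library 1 or 2. Of 32 chemokines, 4 were lower (*Cxcl2*, *Cxcl3*, *Ppbp* and *Pf4*) and 0 higher. *Cd74* had a specific difference of -2.99 (adjusted p = 0.0447), but its CAF-tumor difference was -7.33 in MC38, like the -7.29 of LL2, against -3.12 in EO771 and -2.50 in Pan02. *Hgf* was higher, by 1.69 (adjusted p = 0.00135), as were the collagen VI gene *Col6a3*, by 1.81 (adjusted p = 0.0211), the secreted Wnt antagonist *Frzb*, by 1.29 (adjusted p = 0.000721), and *Dnajb1*, by 1.60 (adjusted p = 0.016). The *Col6a3* difference lay mostly in the tumors (LL2 minus other tumors -1.64, adjusted p = 6.87e-05), and the CAF-tumor difference of *Dnajb1* was 3.51 in Pan02 against 3.38 in LL2. *Dkk2*, for all its LL2-restricted level, had no called LL2-specific difference (0.28, adjusted p = 0.65), and it was high in both fractions.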

How the data were processed

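The tumor table that the authors deposited holds unnormalized expected counts of RefSeq transcripts in steps of 0.5. The poly(A) RNA libraries kept no strand, and reads were mapped to mm10 by STAR 2.5.0c and assigned to exons by HOMER. The CAF table that the authors deposited holds RPKM with 3 decimals. How reads that map to several places were counted is not given in the sources used here. The 5 CT26 columns match no sample used here and were not read.

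There were 40458 transcripts in each, 2 of them without a gene name. Tumor RPKM was the count per kilobase of transcript, scaled by the column sum, and a symbol's transcript was the one of highest mean count in LL2 tumors. Totals of RPKM times length were 1.54 and 1.63 times those of tumors in the CAF libraries. CAF depth was recovered from RPKM steps, where 99.5% and 94.7% of the values checked in LL2 CAF libraries 1 and 2 lay within 0.2 of a whole step, and limits from 3 reads cover counting error only.

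LL2-specific differences were fitted with limma 3.58.1 (R 4.3.3, trend, 1 term per model and fraction) on log2(RPKM + 1), for genes reaching 1 RPKM in 2 or more libraries, with Benjamini-Hochberg adjustment. Fold changes on this scale understate those of low genes. The script was tested on simulated data. TMM came from edgeR 4.0.16. The labels do not say whether a CAF library pooled several tumors, and p-values measure only the spread between these samples. Named genes were the 10 largest and 10 smallest centred differences and the 6 largest and 6 smallest LL2-specific differences at a mean of at least 10 RPKM, the 10 highest CAF levels, and members of 35 gene lists. The genes, lists and alternatives were chosen with earlier results of these data known. Shared sequence was the share of 31-base words of a transcript found in transcripts of other genes (GENCODE vM21).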

Additional observations from a re-analysis of the deposited data

Results flagged for a closer look

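In 12 genes the CAF-tumor difference of LL2 departed from the mean of the other 3 models, by limma's contrast over 20 libraries at an adjusted p under 0.05. It was 5.17 in *Mmp12*, 3.19 in *Postn*, 2.61 in *Penk*, 2.45 in *Spon1*, 2.26 in *Mir207* and 2.09 in *Trp53i11*, on the log2(RPKM + 1) scale. It was -4.30 in *Cbr2*, -3.57 in *Cxcl2*, -3.52 in *Cxcl3*, -3.33 in *S100a9*, -3.18 in *Pf4* and -3.18 in *S100a8*. Of 29 alternatives, *Cbr2* passed the threshold in all 29, *Mmp12*, *S100a8* and *S100a9* in 27 each, *Cxcl3*, *Penk* and *Trp53i11* in 26 each, *Mir207* and *Postn* in 25 each, *Spon1* in 23, *Cxcl2* in 15 and *Pf4* in 12. Without LL2 CAF library 1, or without library 2, 11 of the 12 were no longer called, and none of the 12 genes changed sign in any.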

How the results depend on the processing

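The genes called higher in LL2 CAFs numbered 1568 without centring, 1549 by ranks, 1137 with a pseudocount of 0.1 and 1072 without a filter, against 679. Genes called higher in LL2 tumors numbered 1258 by ranks and 388 at 5 RPKM or more, against 813. Without centring, 74.3% of calls were on the CAF side, against 45.5%. Leaving out 1 library gave 597 to 703 and 658 to 891. Genes of higher LL2-specific difference numbered 142 with TMM, 331 without a filter, 125 at 5 RPKM or more, 70 at a difference of at least 1 and 500 without MC38, against 215. Those of lower difference numbered 77 at a difference of at least 1 and 718 without MC38, against 241. Leaving out 1 library gave 12 to 484 higher and 7 to 450 lower. The lowest counts came without an LL2 CAF library, and the cause was not tested beyond the smaller group. LL2-restricted genes numbered 5 at 2 RPKM, 1 at 10 RPKM, 10 at 4 times and 1 at 16 times, against 2. With the replicate number as a block, 148 genes were higher and 193 lower, and *Cxcl2* and *Pf4* lost their calls. Deviations of same-numbered libraries correlated at -0.18 to 0.27, for LL2 CAFs at 0.27 with Pan02, 0.10 with EO771 and 0.092 with MC38, and since not every pair was over 0.1 the numbers were not taken to pair the samples. Of 648 named and listed genes, 297 were called, and 0 reversed under any alternative, while 43 lost their call by ranks and 31 without centring. The settings without MC38, the other limits for restricted genes and the split by shared sequence were chosen after the data were seen. Without genes that share 25% or more of their words, 457 and 638 were called.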
